A study of Rattus norvegicus with 141 samples.

Results

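The genes described here are the rat major histocompatibility complex (MHC), called RT1 in the rat, and the genes that load and switch on its molecules. The set was chosen by name: every gene whose symbol starts with RT1-, plus Cd74, Ciita, B2m, Tap1, Tap2, Tapbp and Nlrc5. It holds 39 of the 30562 genes in the deposited tables, made up of 22 class I RT1 genes, 10 class II RT1 genes (RT1-B, RT1-D and RT1-H symbols) and 7 helper genes. Adult wild-type Sprague-Dawley rats, an outbred stock, received vehicle, 5 mg/kg (low dose) or 50 mg/kg (high dose) of microplastics, and polyadenylated RNA of liver, stomach and duodenum was sequenced. There were 141 libraries: 48 of stomach, 47 of duodenum and 46 of liver. Each of the 6 combinations of sex and dose had 8 libraries in a tissue, except for 7 female duodenum controls and 6 high-dose female livers. The labels do not say how the particles were given or what they were made of, and they give no RT1 haplotype. They do not say either which libraries came from separate animals, so p-values measure the spread between these libraries.

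MHC class I molecules show peptides from inside a cell to CD8 T cells. The heavy chain pairs with beta-2-microglobulin (B2m), the TAP transporter (Tap1 and Tap2) brings peptides into the endoplasmic reticulum, and tapasin (Tapbp) helps to load them. Class II molecules show peptides from taken-up material to CD4 T cells and are made mainly by B cells, macrophages and dendritic cells, and by intestinal epithelium when interferon gamma is present. An alpha chain (RT1-Da, RT1-Ba) pairs with a beta chain (RT1-Db1, RT1-Bb), the invariant chain Cd74 guards the groove, and RT1-DMa with RT1-DMb exchanges the peptide. Ciita is the master activator of class II genes and Nlrc5 a related activator of class I genes. The RT1 class I genes differ between rat haplotypes both in sequence and in which copies are present.

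The class II genes share a promoter layout in which an X box is followed by a Y box, the sites where the regulatory factor X complex and nuclear factor Y bind before Ciita joins them. The stretches are shown because 6 class II genes of the set share this pair of letters, which few other promoters in the table held. They come from the RefSeq promoter table (build GRCr8, 250 bases before to 50 after each gene start), which held 17 of 21 class I, 8 of 10 class II and 5 of 7 helper symbols (the symbol RT1-CE15 stands for a pair of rows). Capitals mark the X box core ACNGATG and the Y box core TGATTGG, both searched on both strands; each line reads 5′ to 3′ on the gene's strand.
RT1-Da (chr20:4515330-4515376, plus strand): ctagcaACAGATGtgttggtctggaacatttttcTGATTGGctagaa
RT1-Db1 (chr20:4560232-4560277, minus strand): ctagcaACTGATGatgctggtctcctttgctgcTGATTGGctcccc
RT1-Db2 (chr20:4541702-4541746, minus strand): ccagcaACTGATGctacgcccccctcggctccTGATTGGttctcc
RT1-Bb (chr20:4604169-4604214, minus strand): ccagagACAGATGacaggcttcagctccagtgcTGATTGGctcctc
RT1-DMa (chr20:4712389-4712435, minus strand): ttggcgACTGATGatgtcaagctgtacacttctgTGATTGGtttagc
RT1-DOb (chr20:4627596-4627639, minus strand): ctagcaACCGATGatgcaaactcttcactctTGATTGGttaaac
The X core alone was in 10.2% and the Y core alone in 7.06% of all 33469 promoters. An X core followed by a Y core on 1 strand, with 10 to 40 bases between them, was in 20 promoters (0.0598%), and 6 of these belonged to the 8 class II genes with a promoter in the table. In these 6 between 18 and 21 bases lay between the cores. None of the 17 class I promoters and none of the 5 helper promoters held the pair. RT1-Ba and RT1-DOa had the Y core without this X core. No match says only that these letters are not in this window.

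The kappa B site GGGATTCCC, a letter pattern that factors of the NF-kappa B family bind and that is known from class I promoters, was in 122 of all promoters (0.365%) and in 2 of the 17 class I promoters, those of RT1-A1 and RT1-CE16. Both are shown because they were among the 5 most variable genes of the set with a mean of 5 CPM or more. This held in all 3 tissues for RT1-CE16, and in stomach and duodenum but not in liver for RT1-A1. RT1-O1l1, which varied more than either, did not hold the site in this window. Capitals mark the site.
RT1-A1 (chr20:4907072-4907104, plus strand): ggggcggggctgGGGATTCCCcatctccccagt
RT1-CE16 (chr20:3265553-3265585, minus strand): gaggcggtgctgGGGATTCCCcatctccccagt
The interferon response core GAANNGAA, searched on both strands, was in 21.8% of all promoters, 5 of the 17 class I promoters, 3 of the 5 helper promoters (Cd74, Tap2 and Tapbp) and 0 of the 8 class II promoters.

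Not every gene of the set could be tested. After a filter on low counts, 30 of the 39 were left in liver, 32 in stomach and 34 in duodenum. RT1-M1-2, RT1-M1-4, RT1-M5, RT1-M6-1 and RT1-O1, all class I genes, passed in no tissue. RT1-S2 and the second copy of RT1-CE15 (ENSRNOG00000048951) passed in duodenum only, and RT1-DOa and RT1-Hb-ps1 passed in stomach and duodenum. Fractional values made up 66.3%, 61.0% and 73.2% of the class I values of liver, stomach and duodenum, against 9.47%, 11.3% and 11.9% of all gene values. Reads of near-identical class I copies may be divided between rows by estimation, and the level of a single class I copy is uncertain. RT1-Da, B2m and Nlrc5 had only whole values in all 3 tissues. Library totals ranged from 4947825 to 25503801, and the set took a median of 0.294% of a liver library, 0.127% of a stomach library and 0.472% of a duodenum library.

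Tissue levels were compared in the vehicle controls (16 livers, 16 stomachs and 15 duodena), fitted together with edgeR's quasi-likelihood test and adjusted over 15216 genes. Levels here are CPM (counts scaled to library size) after TMM scaling of the sizes, and they are compared between tissues for 1 gene, never between genes. As plain CPM of the library total, the tissue markers had medians of 89741 in liver for Alb (albumin), 5871 in stomach for Atp4a (the acid pump) and 1654 in duodenum for Vil1 (villin). Prss1, a pancreatic acinar gene, lay between 0 and 12824 plain CPM in the control duodena (median 111), and its part in the results was not tested.

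Class II transcripts were highest in duodenum. All 10 class II genes were lower in stomach than in duodenum and all 10 were lower in liver than in duodenum (adjusted p under 0.05), with median log2 differences of -2.29 and -2.37. RT1-DOa and RT1-Hb-ps1 did not pass the filter in liver alone, with medians of 0.316 and 0.277 plain CPM over all livers. They entered this fit through the gut libraries, so their lower level in liver is no separate result. RT1-Da lay between 217 and 574 TMM-scaled CPM in duodenum (median 322), between 37.9 and 89.8 in stomach (median 65.3) and between 46.8 and 115 in liver (median 64.9). No liver or stomach control reached the lowest duodenum, and the log2 difference from duodenum was -2.46 ± 0.13 (SE) for stomach and -2.38 ± 0.13 for liver, a 5.50-fold and a 5.19-fold lower level. The invariant chain Cd74 had medians of 757 in duodenum, 137 in stomach and 141 in liver and log2 differences of -2.44 ± 0.14 and -2.45 ± 0.14. RT1-Ba, the alpha chain of the B class II molecule, had medians of 273, 39.5 and 45.4 and log2 differences of -2.63 ± 0.14 and -2.36 ± 0.14. For Ciita, the activator, the log2 difference was -2.36 ± 0.17 in stomach and -2.37 ± 0.17 in liver, from a duodenal median of 19.4. Of the peptide exchange chains, RT1-DMa was at -2.71 ± 0.12 and RT1-DMb at -1.57 ± 0.16 in stomach against duodenum.

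Liver and stomach differed in few class II genes. After TMM scaling 1 of the 10 class II genes differed between them, the pseudogene RT1-Hb-ps1, which was lower in liver (log2 difference -2.78 ± 0.26). That gene entered the fit only through the gut libraries. RT1-Da differed by 0.08 ± 0.13 (adjusted p = 0.548), Cd74 by -0.01 ± 0.13 (adjusted p = 0.964) and Ciita by -0.01 ± 0.18 (adjusted p = 0.974, all edgeR). The comparison with liver moves with the scaling. The median TMM factor was 0.620 in liver against 1.30 in stomach, and with library totals alone the median of all genes moved from -0.03 to -1.10. On that scale all 10 class II genes were called lower in liver than in stomach, with RT1-Da at -0.98; relative to the median gene, RT1-Da was 0.12 higher in liver with TMM and 0.12 higher with library totals.

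**Figure D1:**
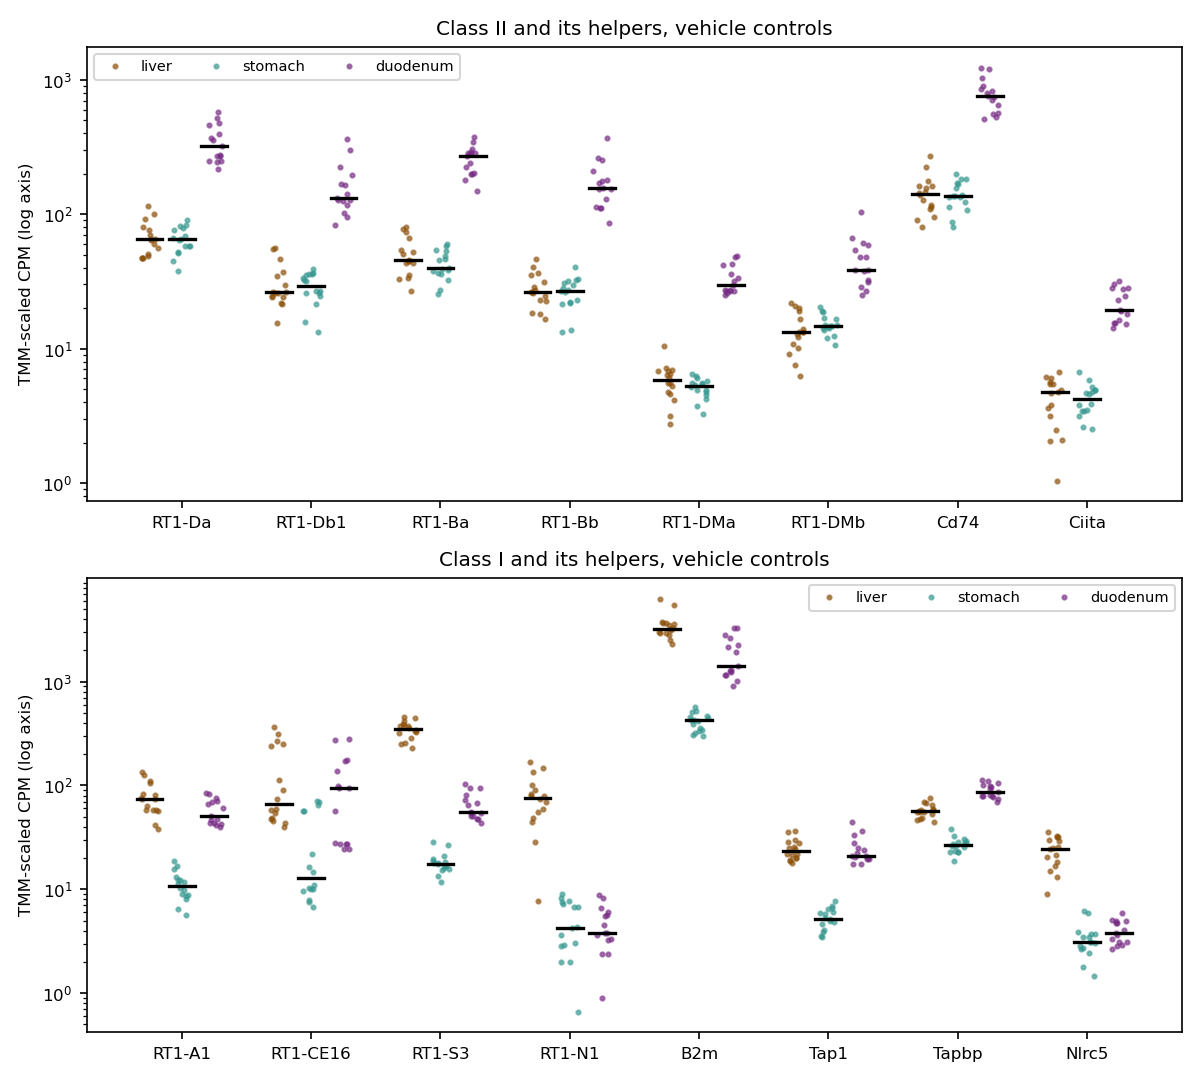
Levels of 16 genes of the set in vehicle controls, as TMM-scaled CPM on a log axis; each point is 1 library (16 liver, 16 stomach, 15 duodenum) and black bars are medians. In the upper panel the duodenum stands alone above liver and stomach, and in the lower panel stomach is at or near the lowest level while RT1-S3, RT1-N1 and Nlrc5 are highest in liver.

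Class I genes followed another order. In stomach 13 of the 15 tested class I genes were lower than in duodenum and none was higher, and 13 of 15 were higher in liver than in stomach. Between liver and duodenum the class split, with 8 genes higher and 5 lower in liver after TMM scaling but 4 higher and 8 lower with library totals alone. RT1-A1 turned from 0.43 to -0.60 and RT1-CE14 from 0.39 to -0.63 with that change, both called on each scale. RT1-CE1 went from 0.06, not called, to -0.96, called, while RT1-N3 and RT1-T24-4, higher in liver with TMM, were not called with totals (0.19 and 0.08). Relative to the median gene, RT1-A1 was 0.57 higher in liver on both scales. RT1-S3, the class I gene with the highest mean count in liver, had a median of 350 TMM-scaled CPM there, 55.0 in duodenum and 17.7 in stomach, and the 3 ranges did not overlap. Its log2 difference was 2.41 ± 0.13 between liver and duodenum (1.401 with library totals) and 4.24 ± 0.14 between liver and stomach. For RT1-N1, a nonclassical class I gene, medians were 76.5 in liver, 4.27 in stomach and 3.83 in duodenum, and the log2 difference from duodenum was 4.04 ± 0.31. The stomach and duodenum values of RT1-N1 overlapped over nearly their whole range (0.10 ± 0.30, adjusted p = 0.766, edgeR). RT1-CE16, the class I gene with the highest mean count in stomach and duodenum, had medians of 66.3 in liver, 12.8 in stomach and 93.5 in duodenum, with wide ranges of 40.03 to 362, 6.76 to 71.0 and 24.4 to 282. Stomach was lower than duodenum by -1.68 ± 0.46, and liver was at 0.40 ± 0.44 against duodenum (adjusted p = 0.402, edgeR), or at -0.61 with library totals (adjusted p = 0.170). RT1-CE2, another class I gene, had a log2 difference of -3.96 ± 0.20 between stomach and duodenum and -0.65 ± 0.17 between liver and duodenum.

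The helpers of class I were low in stomach too. B2m, the light chain of every class I molecule, had medians of 3242 in liver, 1409 in duodenum and 426 in stomach, with a log2 difference of -2.16 ± 0.14 between stomach and duodenum. Tap1 was lower in stomach by -2.17 ± 0.13, Tap2 by -2.199 ± 0.17 and Tapbp by -1.75 ± 0.08. Nlrc5, the class I activator, had another pattern: stomach and duodenum differed by -0.30 ± 0.15 (adjusted p = 0.0602, edgeR), while liver was 2.53 ± 0.14 above duodenum. Comparisons of these genes with liver move with the scaling: with library totals alone B2m fell to -0.08 and Tap1 to -1.0 between liver and duodenum, where the median gene had moved from -0.15 to -1.17. Relative to the median gene, B2m was 1.08 higher in liver than in duodenum with TMM and 1.097 higher with library totals.

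Tissue differences were common in the whole table, and the counts of the set are read beside them. Of all genes tested 41.5% were lower and 35.8% higher in stomach than in duodenum, 46.3% lower and 36.2% higher in liver than in duodenum, and 42.5% lower and 40.5% higher in liver than in stomach. For stomach against duodenum the set had 29 of 32 genes lower and 0 higher, with a median log2 difference of -2.14 against -0.07 for all genes. Its median was -0.65 between liver and duodenum (all genes -0.15) and 1.68 between liver and stomach (all genes -0.03). In bulk tissue, fewer cells of a type and less RNA per cell cannot be told apart.

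Lists of genes that work beside the set differed in direction. All 4 measured class I proteasome genes were lower in stomach than in duodenum, among them Psmb8 by -4.71 and Psmb9 by -4.05, the catalytic subunits that cut peptides for class I. The 4 trimming and loading genes (Erap1, Calr, Canx, Pdia3) were lower too, by -0.36 to -0.87. Of 6 class II processing genes 4 were lower and 1 higher in stomach. Ctss, the protease that trims the invariant chain, had a log2 difference of -3.65, and Rfx5, a subunit of the X box factor, of -0.33. Of 9 measured genes of interferon gamma signalling 6 were lower in stomach than in duodenum and none was higher. Irf1 stood at -2.40 and Irf8 at -3.54. Of the 5 MHC-like genes outside RT1, 3 were higher in stomach than in duodenum, Azgp1 by 5.96, Mr1 by 0.49 and Cd1d1 by 0.35. Fcgrt was lower by -0.84, and Hfe was at -0.03 and did not pass.

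Markers of immune cells differed between the tissues as well. All 3 leukocyte markers were lower in stomach and in liver than in duodenum, Ptprc (CD45) by -1.83 and -1.24. The 3 measured B cell markers were lower in stomach by -2.42 to -4.27, and Cd79a was lower in liver by -2.16. As plain CPM, the liver and duodenum medians were 4.80 and 5.53 for Cd22, and 0.558 and 2.99 for Cd79b. Plain CPM places liver lower against duodenum than TMM scaling does. Of 5 dendritic cell markers 4 were lower in each, Itgax by -2.06 in stomach and -2.54 in liver. Zbtb46, a further dendritic cell marker, went the other way, with plain CPM medians of 3.28 in stomach, 2.26 in liver and 1.97 in duodenum. Of 7 macrophage markers 5 were lower in stomach than in duodenum. After TMM scaling all 7 were higher in liver than in duodenum, but as plain CPM the liver medians of C1qa (79.9 against 94.9), C1qb (38.5 against 49.7) and C1qc (38.05 against 47.3) were lower and that of Csf1r was 38.7 in both. How much of the tissue differences in class II genes goes with these cells was not tested.

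The study asked what microplastics change, and few genes of the set passed a test of dose. For each tissue, dose groups were compared in 1 edgeR quasi-likelihood fit with terms for sex, dose and batch. The high dose called 0 of 30 genes of the set in liver (all genes 0%), 0 of 32 in stomach (all genes 4.49%) and 4 of 34 in duodenum (all genes 16.3%), so the share of the set was at or below that of all genes in each tissue. At an unadjusted p under 0.05 there were 2, 5 and 7 genes of the set. Of all genes, 446 of 13130, 3610 of 15140 and 4868 of 15189 lay under it. DESeq2 called 0, 0 and 6 of the set, beside 0, 1025 and 3015 of all genes. The low dose called no gene of the set and 0% of all genes in every tissue by edgeR. At an unadjusted p under 0.05 there were 0, 1 and 3 genes of the set, and 272, 909 and 2132 of all genes. DESeq2 called none of the set, and 0, 28 and 18 of all genes. In liver the genes of the set with the smallest p at the low dose were Tap1 (0.17 ± 0.10), RT1-Da (0.20 ± 0.13) and RT1-Ba (0.21 ± 0.15). In stomach they were RT1-Da (0.25 ± 0.10), RT1-N3 (-0.19 ± 0.09) and B2m (0.17 ± 0.09). In duodenum 32 of 34 estimates were negative at the low dose (all genes 8057 of 15189), with a median of -0.19 against -0.01 for all genes. Ciita was at -0.39 ± 0.12 there (adjusted p = 0.206, edgeR), RT1-M3-1 at -0.21 ± 0.09 and RT1-CE15 (ENSRNOG00000065311) at -0.55 ± 0.25.

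**Figure D2:**
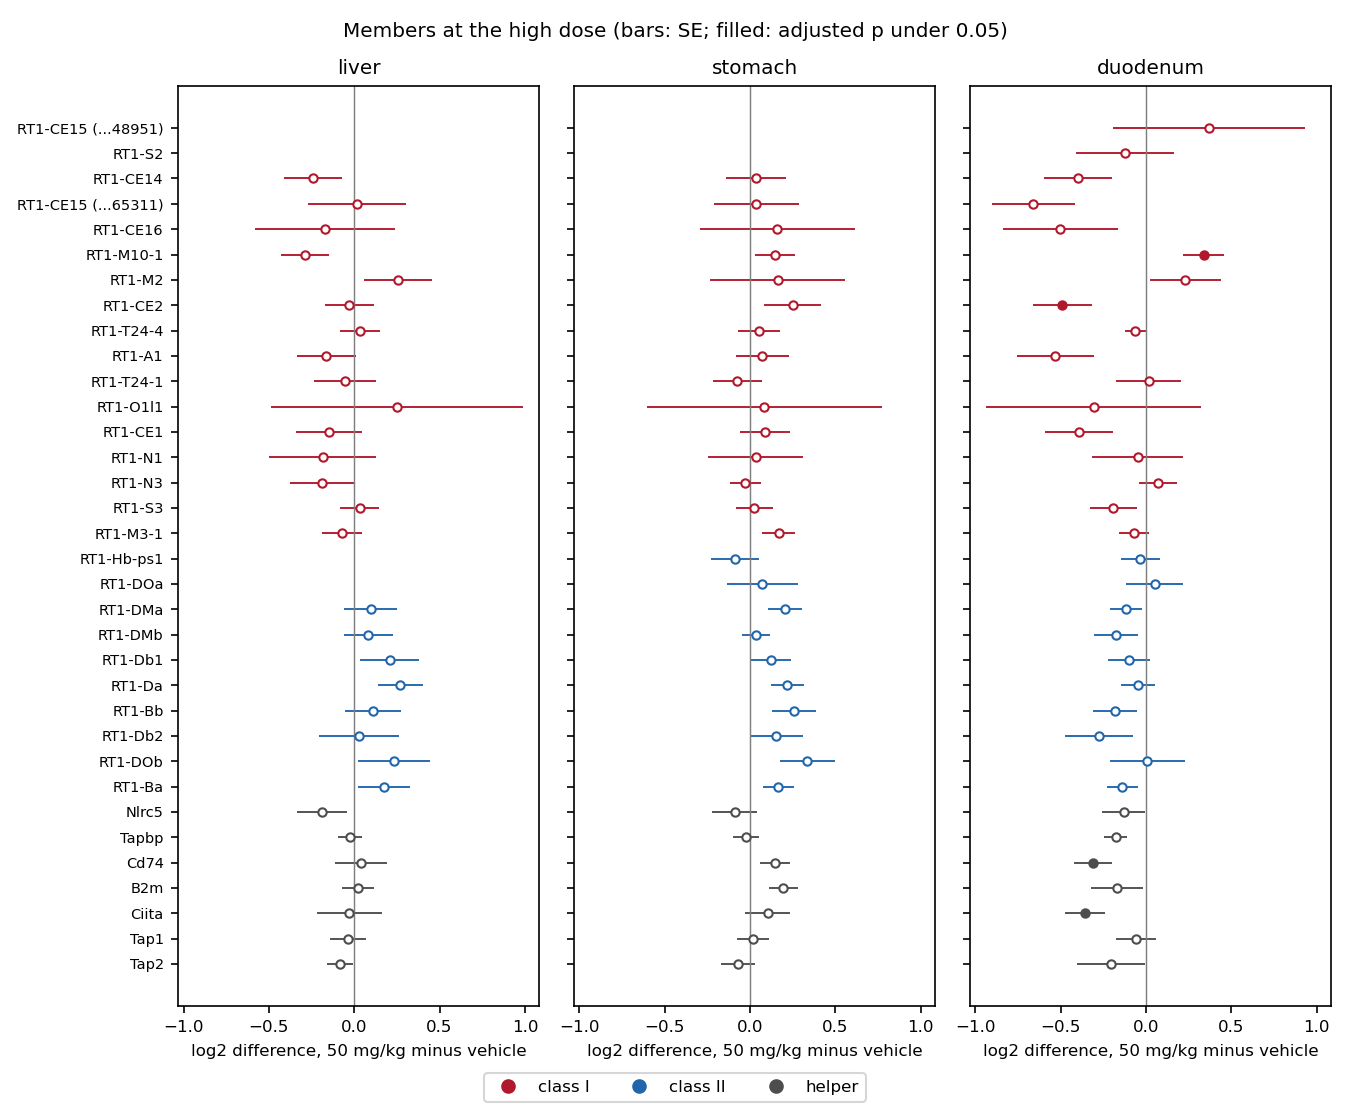
Log2 difference between 50 mg/kg and vehicle for each tested gene of the set, both sexes, by tissue; points are edgeR estimates, bars their standard errors, and filled points passed an adjusted p of 0.05. The 4 filled points are all in duodenum, and the class II genes lie right of 0 in liver and, except for RT1-Hb-ps1, in stomach.

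In stomach the lean was upward. At the high dose 26 of 32 genes had positive estimates and 6 negative ones, with a median of 0.09 against -0.01 for all genes. Of all 15140 genes 7320 had positive estimates. The lean was mostly in males, with 24 positive and 8 negative (median 0.15), against 17 and 15 in females (median 0.01). The smallest p belonged to B2m (0.20 ± 0.09), RT1-Da (0.22 ± 0.10) and RT1-DOb (0.34 ± 0.16), none past the threshold, and Ciita was at 0.10 ± 0.13, Tap1 at 0.02 ± 0.09, Nlrc5 at -0.09 ± 0.13 and RT1-CE16 at 0.16 ± 0.45. In males alone, 2 of 32 genes passed (all genes 7.06%), and 6 had an unadjusted p under 0.05 (all genes 3838 of 15140). RT1-Da, the alpha chain of the D class II molecule, had 47.7 to 89.0 CPM in male controls (median 73.1), 58.5 to 145 at the low dose (median 92.9) and 62.5 to 129 at the high dose (median 90.9). The groups overlapped, and the high-dose difference was 0.43 ± 0.14 (adjusted p = 0.0482, edgeR). B2m ranged from 392 to 630 in male controls (median 456) and from 497 to 905 at the high dose (median 576), a difference of 0.37 ± 0.12 (adjusted p = 0.0482, edgeR). RT1-Ba at 0.36 ± 0.13 and Cd74 at 0.31 ± 0.12 did not pass (adjusted p = 0.0803 and 0.103, edgeR). Both calls depended on single libraries: in the 48 fits that left out 1 library each, RT1-Da kept its call in 25, with adjusted p from 0.0299 to 0.151, and B2m in 26, with adjusted p from 0.0312 to 0.156.

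In female stomachs RT1-Da had a median of 98.9 CPM in controls (79.5 to 116) and of 96.1 at the high dose (69.7 to 131), and the groups overlapped. No gene of the set passed in females (all genes 0%), and none did by DESeq2. At an unadjusted p under 0.05 there were 2 genes of the set and 880 of all 15140 genes. The smallest p belonged to RT1-DOb (0.74 ± 0.23, adjusted p = 0.848, edgeR), RT1-Bb (0.37 ± 0.18) and Tapbp (-0.20 ± 0.11). The difference between the sexes in the dose effect was -0.42 ± 0.19 for RT1-Da and -0.35 ± 0.17 for B2m. Neither passed (adjusted p = 0.633 and 0.637, edgeR), nor did any other gene of the set (all genes 0%), and none did by DESeq2. RT1-DOb (0.81 ± 0.32), Tapbp (-0.36 ± 0.15) and RT1-Db2 (-0.69 ± 0.31) had the smallest p. At an unadjusted p under 0.05 there were 6 genes of the set and 1187 of all 15140 genes. Within batch 1 the male difference of RT1-Da was 0.58 and within batch 2 it was 0.40, and that of B2m was 0.40 and 0.39.

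Other genes rose in the same male comparison. Psmb8 (0.64 ± 0.18, adjusted p = 0.0255) and Psme1 (0.32 ± 0.10, adjusted p = 0.0366) of the class I proteasome rose, 2 of the 4 measured. The complement genes C1qa (0.44 ± 0.14) and C1qc (0.50 ± 0.14), made by macrophages, rose as well, 2 of 6 macrophage markers (edgeR). The summed macrophage markers lay between 71.7 and 126 CPM in male controls (median 115) and between 113 and 178 at the high dose (median 135). The defining macrophage markers Csf1r and Adgre1 did not pass, at 0.22 ± 0.12 and 0.23 ± 0.17, and the enterocyte gene Fabp2 rose by 1.36 ± 0.37. The enterocyte list also holds Alpi, Vil1 and Apob, whose values in this comparison are not given here. The share of counts from ribosomal protein genes, a sign of library composition, had a median of 2.79% in male controls and 5.85% at the high dose. With that share as a covariate B2m was at 0.07 and RT1-Da at 0.33, and neither passed. The part of the macrophage and enterocyte genes in the result was not tested.

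In duodenum the lean was downward: 27 of 34 genes of the set had negative estimates at the high dose, with a median of -0.13 against -0.02 for all genes. Of all 15189 genes 8097 had negative estimates. Ciita fell by 0.36 ± 0.12 on the log2 scale (adjusted p = 0.034, edgeR). Its control libraries spread from 16.4 to 44.2 CPM (median 23.4) and its high-dose libraries from 15.8 to 36.2 (median 20.1), so the groups overlapped over most of their range. Cd74 fell by 0.31 ± 0.11 (adjusted p = 0.0478, edgeR), from 546 to 1691 in controls (median 977) to between 619 and 1103 (median 806). The class II chains did not pass, with RT1-Da at -0.05 ± 0.10 and RT1-Ba at -0.14 ± 0.09, nor did B2m (-0.17 ± 0.15), Tap1 (-0.06 ± 0.12), Nlrc5 (-0.13 ± 0.13) and RT1-CE16 (-0.50 ± 0.34).

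The other 2 calls were class I genes with shared reads. RT1-CE2 fell by 0.49 ± 0.17 (adjusted p = 0.0451, edgeR), from 9.71 to 57.8 CPM in controls (median 20.5) to between 8.40 and 23.4 (median 14.6). RT1-M10-1 rose by 0.34 ± 0.12 (adjusted p = 0.0491, edgeR), from 3.15 to 10.6 in controls (median 5.46) to between 5.20 and 13.9 (median 7.24). Both genes' ranges overlapped between the groups. In the 47 fits that left out 1 library each, Ciita kept its call in 37 (adjusted p from 0.0136 to 0.0712), RT1-CE2 in 28 (0.0227 to 0.103), Cd74 in 19 (0.0259 to 0.0999) and RT1-M10-1 in 17 (0.0257 to 0.1196). Within batch 1 Ciita was at -0.09 and Cd74 at -0.07, and within batch 2 at -0.54 and -0.30. Within either sex no gene of the set passed (all genes 0% in males and 0% in females). At an unadjusted p under 0.05 there were 3 and 6 genes of the set, and 3650 and 2048 of all 15189 genes. DESeq2 called none of the set, and 1010 and 3 of all genes. The smallest p in males belonged to RT1-M10-1 (0.37 ± 0.17), RT1-M2 (0.62 ± 0.29) and Tapbp (-0.20 ± 0.10), and in females to Ciita (-0.45 ± 0.17), RT1-CE2 (-0.60 ± 0.25) and RT1-CE14 (-0.63 ± 0.29). No gene of the set passed the test of a sex difference in the dose effect (all genes 0%), and none did by DESeq2. RT1-M2 (-0.77 ± 0.42), RT1-Db1 (0.46 ± 0.25) and Tap1 (0.43 ± 0.24) had the smallest p. At an unadjusted p under 0.05 there were 0 genes of the set and 302 of all 15189 genes.

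**Figure D3:**
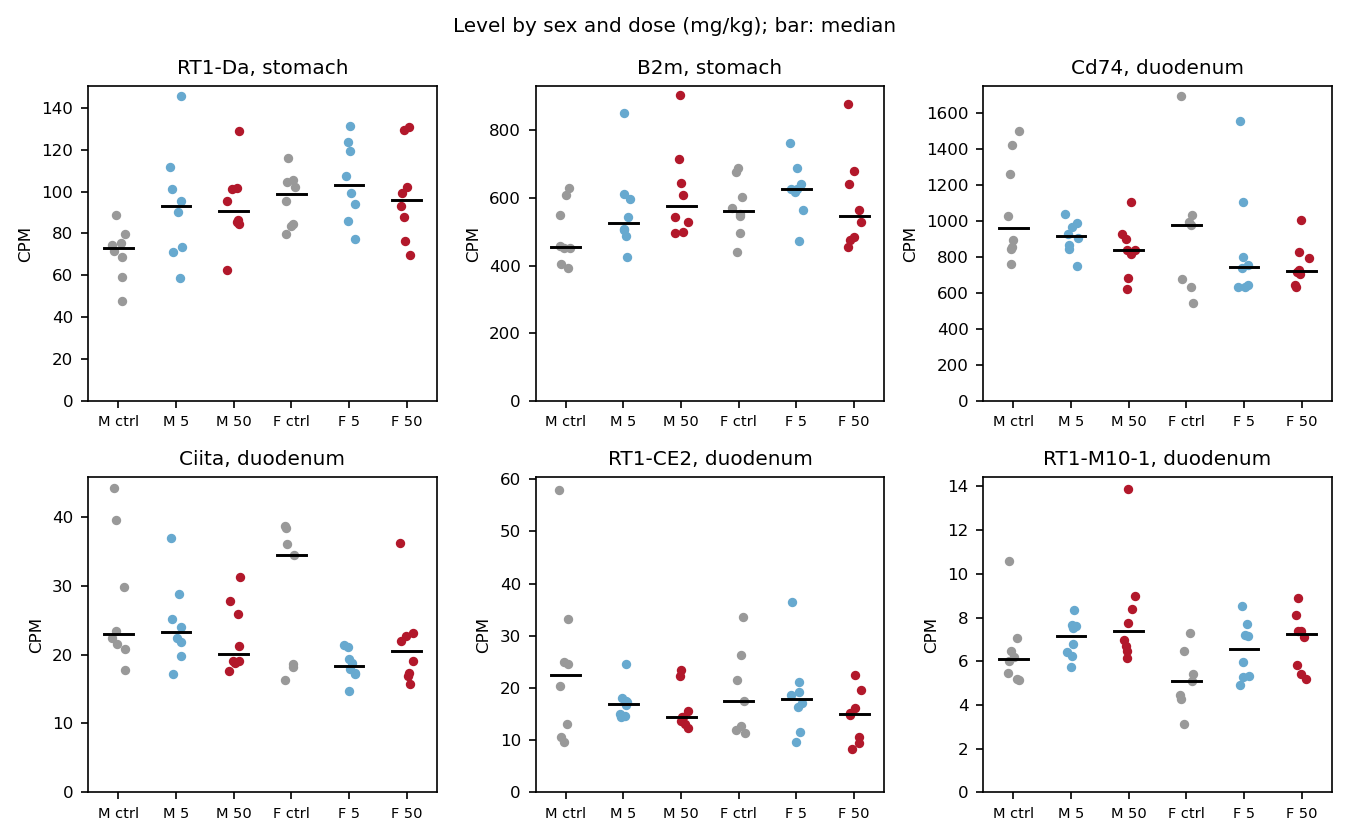
CPM by sex and dose for the 2 genes called in male stomach and the 4 called in duodenum; each point is 1 library, bars are medians, M and F are male and female, ctrl is vehicle, and 5 and 50 are mg/kg. High-dose and control libraries overlap in every panel, and the highest Ciita, Cd74 and RT1-CE2 values are controls.

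Beside these values, Apob fell by 1.18 ± 0.37 in the same duodenal comparison (adjusted p = 0.0268, edgeR), 1 of the 4 enterocyte markers. Ribosomal protein genes took a median of 4.38% of male controls and 6.58% of high-dose males, 3.86% of female controls and 5.48% of high-dose females. With that share as a covariate Ciita was at -0.23, Cd74 at -0.30, RT1-CE2 at -0.30 and RT1-M10-1 at 0.10, and none of the 4 passed. Of 5 T cell markers Cd3g rose by 0.80 ± 0.29 (adjusted p = 0.0495, edgeR). The 3 leukocyte markers did not pass, and their summed level overlapped, with 74.5 to 225 in controls and 97.1 to 232 at the high dose. Irf8, which controls development of dendritic cells and macrophages, fell by 0.17 ± 0.05, and no other interferon gamma signalling gene of the 9 measured passed. Among MHC-like genes outside RT1, Cd1d1, which presents lipids, rose by 0.44 ± 0.10 and Fcgrt, the antibody receptor of the gut, by 0.25 ± 0.09. Per the labels' protocols the homogeniser was taken apart and brushed between treatments and only rinsed between samples of 1 treatment, so handling and dose cannot be told apart.

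In liver no comparison of doses called a gene of the set: 0 of 30 in males and 0 of 30 in females (all genes 0% in each). DESeq2 called none either. At an unadjusted p under 0.05 there were 2 and 0 genes of the set, and 639 and 200 of all 13130 genes. The smallest p in males belonged to Tap2 (-0.24 ± 0.10), Tap1 (-0.29 ± 0.14) and RT1-M10-1 (-0.36 ± 0.19), and in females to RT1-N3 (-0.47 ± 0.28), RT1-Db1 (0.36 ± 0.26) and Tap1 (0.21 ± 0.15). The sex difference of the dose effect called no gene of the set by edgeR (all genes 0%) or by DESeq2. Tap1 (0.50 ± 0.21), Tap2 (0.30 ± 0.15) and Tapbp (0.23 ± 0.14) had the smallest p. At an unadjusted p under 0.05 there was 1 gene of the set and 307 of all 13130 genes. Over both sexes RT1-Da was at 0.27 ± 0.13 at the high dose, with an unadjusted p of 0.0485 and an adjusted p of 1 (edgeR). All 8 tested class II genes had positive estimates with a median of 0.14, and 10 of 15 class I genes negative ones with a median of -0.07. Of all 13130 genes 6649 had positive estimates. In males 5 of the 8 class II estimates were positive (median 0.03) and in females all 8 (median 0.21). The class II genes vary together between livers, so their signs are not independent. RT1-M10-1, which was higher at the high dose in duodenum, was at -0.29 ± 0.14 in liver, and RT1-CE14 at -0.24 ± 0.17. B2m was at 0.02 ± 0.09, Cd74 at 0.04 ± 0.15, Ciita at -0.03 ± 0.19, Tap1 at -0.04 ± 0.10, Nlrc5 at -0.19 ± 0.15, RT1-Ba at 0.17 ± 0.15 and RT1-S3 at 0.03 ± 0.11.

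Sex differences among controls were found in liver, where 3 of 30 genes of the set passed against 22.8% of all genes. Tapbp, the tapasin gene, was higher in females by 0.32 ± 0.10 (adjusted p = 0.0133, edgeR): 33.4 to 46.9 CPM against 25.8 to 36.004 in males, with medians of 39.7 and 30.1. RT1-N3 was higher in females by 0.77 ± 0.26 (adjusted p = 0.0262, edgeR), and its ranges of 9.93 to 38.2 and 5.03 to 18.1 overlapped. B2m was lower in females by -0.36 ± 0.13 (adjusted p = 0.0397, edgeR; 1517 to 2374 CPM against 1487 to 3454), while Tap2 at 0.27 ± 0.11 did not pass. Left out 1 at a time, the 46 libraries kept the call of Tapbp in 46 fits, of RT1-N3 in 43 and of B2m in 37. None of the 8 class II genes passed. Of the wider pathway 2 of 4 class I proteasome genes (Psmb8, Psmb10), 2 of 6 class II processing genes (Rfx5, Rfxap) and 3 of 8 interferon gamma signalling genes (Ifngr2, Irf1, Jak2) were higher in female liver. The macrophage markers Csf1r (0.57), Cd68 (0.53) and Adgre1 (0.58) and the leukocyte marker Ptprc (0.67) were higher there too, and their part in the result was not tested. Values of the other listed macrophage markers (C1qa, C1qb, C1qc and Marco) and leukocyte markers (Laptm5 and Coro1a) are not given here.

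In the gut no gene of the set passed between the sexes of the control rats. In stomach 0.172% of all genes passed. At an unadjusted p under 0.05 there were 6 genes of the set and 1106 of all 15140 genes. DESeq2 called 1 gene of the set and 59 of all genes. RT1-Ba was 0.54 ± 0.13 higher in females (adjusted p = 0.0618, edgeR) and RT1-Da 0.46 ± 0.14 higher, beside Nlrc5 at 0.70 ± 0.18. Of the 10 class II estimates 7 were positive in stomach, and 8 were negative in duodenum. In duodenum RT1-Db1 was at -0.64 ± 0.18 (adjusted p = 0.331, edgeR), RT1-Da at -0.39 ± 0.14 and RT1-Bb at -0.47 ± 0.19. Of all duodenal genes 0.079% passed. At an unadjusted p under 0.05 there were 6 genes of the set and 805 of all 15189 genes. DESeq2 called none of the set and 18 of all genes.

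Several class I genes varied widely between libraries of 1 group. RT1-O1l1, a class I gene, had 2 separate levels in each tissue. In liver 27 libraries lay at or below 0.814 CPM and 19 at or above 7.48, with none between. In stomach 28 lay at or below 0.906 and 20 at or above 6.59, and in duodenum 27 at or below 18.2 and 20 at or above 52.0. The biological coefficient of variation of RT1-O1l1, the spread between libraries of 1 group beyond counting error, was 1.42 in liver, 1.41 in stomach and 1.098 in duodenum. Of all genes tested 99.7%, 99.5% and 98.9% had a lower one. RT1-CE16 had 0.72, 0.83 and 0.62 and RT1-N1 had 0.60, 0.54 and 0.50, in the same order of tissues. Among the other genes of the set with a mean of 5 CPM or more in a tissue, the highest were RT1-CE1 (0.35) and RT1-N3 (0.34) in liver, RT1-A1 (0.29), RT1-T24-1 (0.27) and the class II beta chain RT1-Bb (0.25) in stomach, and RT1-CE15 (ENSRNOG00000065311, 0.46) and RT1-A1 (0.43) in duodenum. Genes below that mean could vary more: RT1-M2 had 0.70 in stomach, RT1-CE15 (ENSRNOG00000065311) had 0.52 in liver and 0.43 in stomach, and RT1-S2 had 0.48 in duodenum. The second copy of RT1-CE15 (ENSRNOG00000048951) had 1.12 in duodenum, where it was at 0 counts in 6 libraries and reached 7.84 CPM in another.

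The same library numbers were on the same side in all 3 tissues. The labels number the libraries of each tissue in parallel (up to 48), without saying that a number is 1 animal. Of the 45 numbers present in all 3 tissues, 19 were at the upper level in all 3, 26 at the lower level in all 3, and 0 were mixed. The upper level held 2 of 8 male controls, 3 of 8 low-dose and 2 of 8 high-dose males in stomach, and 3 of 8, 5 of 8 and 5 of 8 females in the same order. No dose or sex group was wholly at 1 level. The batch in the labels did not go with the number: of the 45 numbers, 44 had libraries in different batches, among them all 19 at the upper level.

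**Figure D4:**
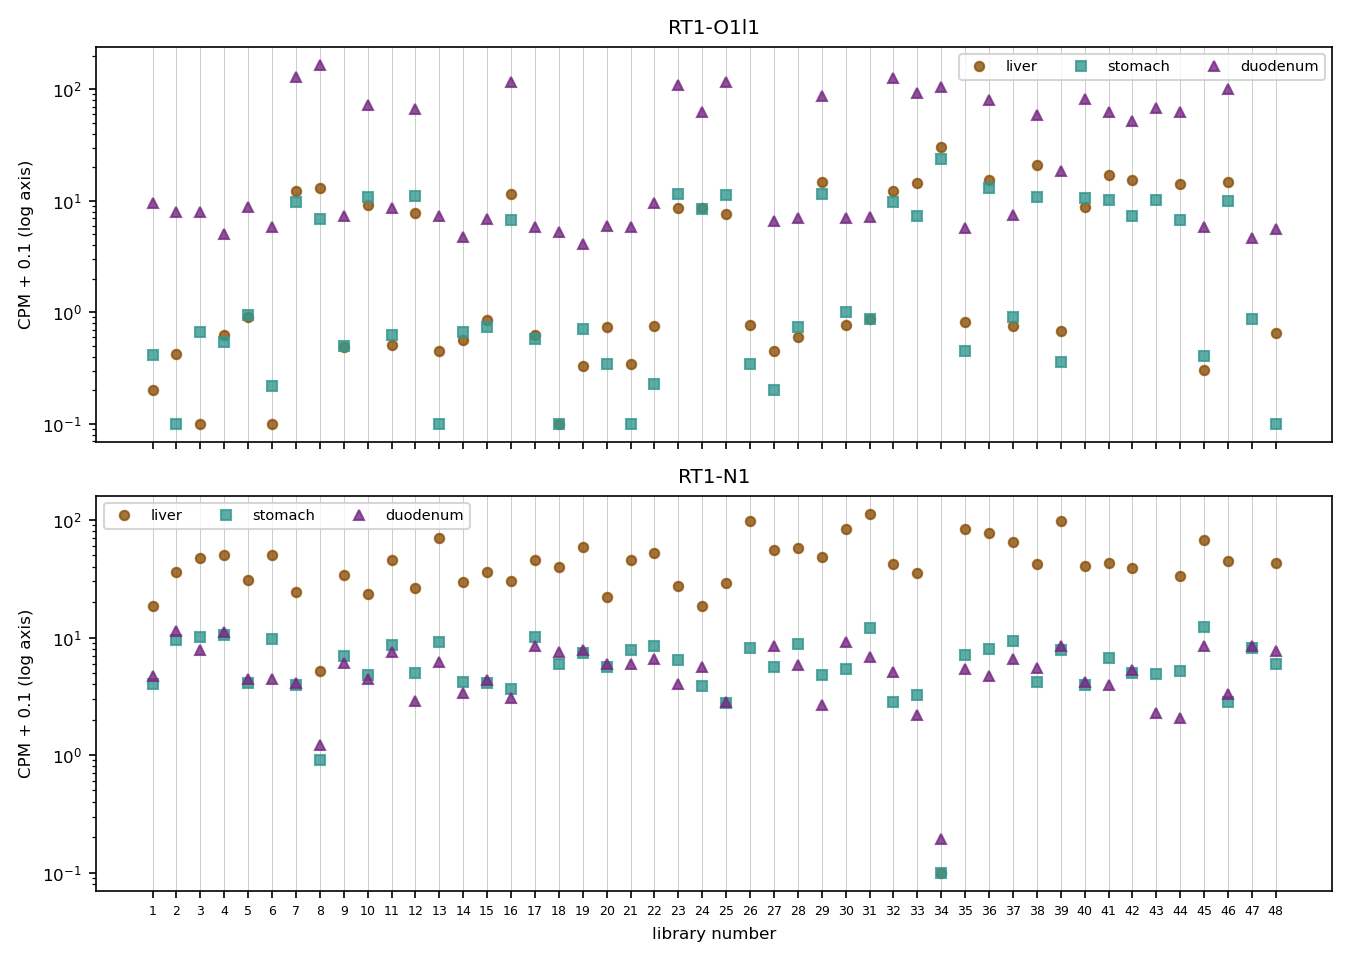
RT1-O1l1 and RT1-N1 in every library, by the library number in the labels; the y axis is CPM plus 0.1 on a log axis, and symbols are tissues. For RT1-O1l1 the 3 symbols of a number are high together or low together, and for RT1-N1 number 34 is at or near 0 and number 8 is low in all 3 tissues.

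RT1-N1 was at or near 0 in 1 library number. Number 34, from a low-dose female, had 0 counts of RT1-N1 in liver and in stomach and 1 in duodenum, where the medians over libraries were 42.7, 5.70 and 5.26 CPM. Number 8, a male control, was next lowest in each tissue with 5.08, 0.814 and 1.12. The same number 34 had the highest RT1-O1l1 in liver (30.0) and stomach (23.8), the highest RT1-CE16 in both (332 and 184 against medians of 45.4 and 19.7), and the lowest RT1-CE15 (ENSRNOG00000065311) in all 3 tissues. RT1-A1 and RT1-CE14 were lowest in number 34 in liver and in duodenum. Number 39, a low-dose female, had the highest RT1-A1 of the duodena, 386 CPM against a median of 52.6, and the highest RT1-CE14, 61.2 against 13.1. Its RT1-A1 ranked the fifth from the highest in liver and the ninth in stomach.

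The likeness within a number was described for all genes in the same way. After removing group and batch means, the Pearson correlation of a gene's log2 CPM over the shared library numbers had a median of 0.01 between liver and stomach for all genes, and 1.34% of genes reached 0.5. For the 13 class I genes without separate levels (RT1-O1l1 and RT1-CE16 left out) the median was 0.47, and 6 reached 0.5. Between liver and duodenum their median was 0.25 and 4 of 13 reached 0.5 (all genes 0.02 and 1.07%), and between stomach and duodenum it was 0.26 with 4 of 13 (all genes 0.01 and 1.58%). The 8 class II genes had a median of 0.43 between liver and stomach but of 0.13 between liver and duodenum, and the 7 helpers of 0.26 and 0.14. These are descriptions over 46, 45 and 47 numbers, and genes that share reads are not independent.

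**Figure D5:**
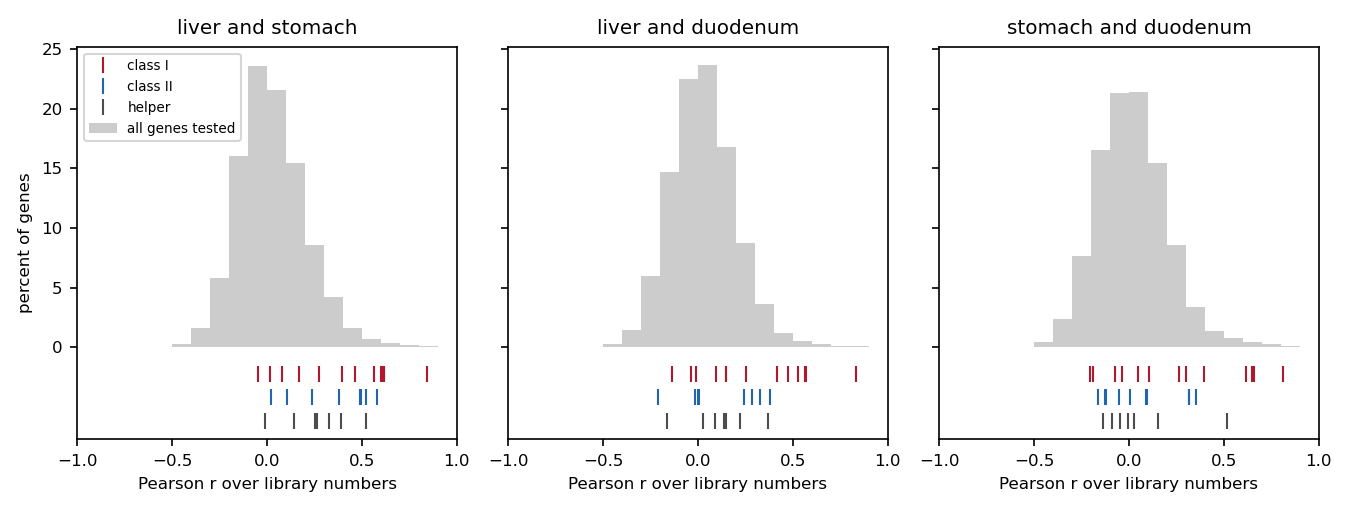
Pearson correlation between 2 tissues over library numbers, after removing group and batch means: bars show the percent of all tested genes in each bin of 0.1, and ticks below them the class I, class II and helper genes of the set, without RT1-O1l1 and RT1-CE16. The bars centre on 0, with a few genes above 0.8. Of the class I ticks only RT1-N1 lies above 0.8 in each panel, and some lie below 0.

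For RT1-N1 the correlation was 0.846 between liver and stomach (Spearman 0.700), 0.834 between liver and duodenum (0.667) and 0.813 between stomach and duodenum (0.693). Each had an adjusted permutation p of 3.5e-05 for Pearson, from the smallest p that 100000 permutations can give, in a family of 21 tests. The 2 libraries farthest from the median carried part of it: without them the values were 0.651, 0.581 and 0.595. RT1-A1 had 0.616, 0.569 and 0.397 in the same order, and 0.529, 0.331 and 0.342 without the 2 farthest. RT1-CE1 had 0.614, 0.527 and 0.262, and RT1-M2 had 0.395, 0.147 and 0.648. The light chain B2m was at -0.01, 0.03 and -0.01, and RT1-Da at 0.49 between liver and stomach but at 0.00 in both comparisons with duodenum.

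Likeness within a tissue was described over libraries, after removing group and batch means. The gene most like RT1-Da over the whole table was RT1-Ba in each tissue, with residual correlations of 0.93 in liver, 0.87 in stomach and 0.86 in duodenum. In liver the next were Cd74 (0.79), RT1-Bb (0.78), RT1-Db1 (0.75) and Cd53 (0.74), a leukocyte membrane gene. In duodenum they were RT1-DMa (0.73), RT1-Bb (0.72), Plek (0.71) and Ppic (0.68), and in stomach Ifi47 (0.74), Htatip2 (0.72), Zdhhc13 (0.72) and Jaml (0.72). Over the 28 pairs of class II genes in liver the median correlation was 0.48, against 0.00 over all pairs of genes tested. It was 0.38 over 45 pairs in duodenum and 0.17 over 45 pairs in stomach. Pairs of class I genes had medians of 0.21 in liver, 0.18 in duodenum and 0.09 in stomach, and pairs of helpers 0.23, 0.11 and 0.40. In stomach 13.3% of the class II pairs reached 0.5, the same share as of class I pairs, against 46.4% and 15.2% in liver and 35.6% and 13.2% in duodenum. Of all pairs of genes 7.62% reached it in liver, 2.98% in stomach and 6.92% in duodenum.

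In all 18 correlations between named pairs of genes were tested over the 3 tissues, with permutation tests of 100000 draws. Cd74 followed RT1-Da in all 3 tissues, with Pearson 0.790 and Spearman 0.842 in liver, 0.674 and 0.610 in stomach, and 0.503 and 0.485 in duodenum (adjusted permutation p for Pearson of 4.5e-05, 4.5e-05 and 0.000562). Without the 2 farthest libraries Pearson was 0.755, 0.543 and 0.462. Ciita with RT1-Da had Pearson 0.335 and Spearman 0.273 in liver, 0.438 and 0.427 in stomach, and 0.377 and 0.327 in duodenum. The adjusted permutation p for Pearson was 0.0282, 0.00291 and 0.0121, and that for Spearman 0.0784, 0.00569 and 0.0316, so the liver pair passed by Pearson and not by Spearman. The leukocyte marker Ptprc had Pearson 0.457, 0.547 and 0.373 with RT1-Da and Spearman 0.361, 0.399 and 0.342 (adjusted permutation p for Pearson of 0.00261, 0.000252 and 0.0121). The macrophage marker Csf1r had Pearson 0.412, 0.528 and 0.228 and Spearman 0.343, 0.439 and 0.230, and the duodenum pair did not pass (adjusted permutation p = 0.137 for Pearson). Without the 2 farthest libraries Pearson was 0.311, 0.403 and 0.376 for Ciita, 0.427, 0.420 and 0.386 for Ptprc and 0.300, 0.411 and 0.241 for Csf1r. Within batch 1 and batch 2 the Ciita values were 0.474 and 0.310 in liver, 0.429 and 0.471 in stomach, and 0.591 and 0.249 in duodenum.

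The class I activator and the class I helpers were compared in the same way. In stomach B2m rose with Nlrc5 (Pearson 0.514, Spearman 0.549, adjusted permutation p = 0.00054 for Pearson), in liver it was lower where Nlrc5 was higher (-0.671 and -0.624, adjusted permutation p = 4.5e-05), and in duodenum the correlation was -0.160 (adjusted permutation p = 0.297). Within batches the liver values were -0.565 and -0.785 and the stomach values 0.742 and 0.358. The liver relation was not particular to Nlrc5: Ciita, the class II activator, had -0.71 with B2m and 0.73 with Nlrc5 there. These Ciita pairs were described and not tested. Tap1 rose with Nlrc5 in liver (0.628) and in stomach (0.468), and was at 0.055 in duodenum. The genes most like Nlrc5 in liver were Adar, Mycbp2, Zfp609, Znfx1 and Itgb3 (0.87 to 0.86), and in stomach Runx2, Cxcl16, Fcgbp, C2cd4a and Oas1a (0.63 to 0.60). In duodenum they were Fam24al1, Wipf1, Dock10, Wdfy4 and Pik3cd (0.65 to 0.62), so no gene was on more than 1 of the 3 lists.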

How the data were processed

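Polyadenylated RNA of 141 libraries from rat liver, stomach and duodenum was sequenced. The authors deposited estimated counts per gene (1 table per tissue, 30562 genes, 4380 without a symbol), part of them fractional. The build mRatBN7.2, the aligner STAR 2.7.11b, the quantifier Salmon 1.10.3 and UMI-tools 1.1.5 are named per the submitters' processing notes, beside Trim Galore 0.6.10, cutadapt 4.9, MultiQC 1.28 and FastQC 0.12.1. Settings, annotation release and use of strand are not given in the sources used, so reads shared by near-identical or overlapping genes cannot be assigned with certainty.

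The estimated counts were rounded. In R 4.3.3 with edgeR 4.0.16, filterByExpr (minimum count 10, minimum total 15) was run in each tissue and left 13130, 15140 and 15189 genes, and library sizes were scaled by TMM. The quasi-likelihood fit modelled the 6 sex and dose groups plus the batch (3 in the labels). The tissue comparison used the vehicle controls in 1 fit with tissue, sex and batch. Benjamini-Hochberg adjustment ran over all genes tested, with calls at an adjusted p under 0.05. Correlations used log2 CPM (prior count 2) after removing group and batch means. No pair of libraries held identical values. The fit was checked on simulated data.

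The members and all gene lists were chosen with earlier results of these data known. Genes named were the calls of a comparison, or the 3 with the smallest p where fewer than 3 passed (at most 8 each way), 8 genes always named (the class I gene with the highest mean count among them), the 5 members with the largest dispersion per tissue among those with a mean of 5 CPM or more, and those at 0 in 1 library and at 5 CPM or more in another. Promoter sequences came from RefSeq (GRCr8). Alternatives were DESeq2 1.42.0, DESeq2's size factors, library totals without TMM, no filter, no batch term, a replicate block, 3 surrogate variables (sva 3.50.0), the ribosomal protein share as a covariate, only the groups compared, class I rows summed, leaving out batch 3, single batches and leaving out each library. Figures were drawn with matplotlib 3.10.9 (Python 3.11.15), and permutation tests ran in Python.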

Additional observations from a re-analysis of the deposited data

Results flagged for a closer look

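In 6 of 168 groups of libraries examined, 1 library stood far from the rest of its group, where chance gives about 1 in 20 groups. In liver, B2m was at 1474 (1.47e+03) CPM in high-dose female replicate 4, where the nearest of the 6 libraries had 2006, and Tapbp was at 35.1 in high-dose female replicate 3, where the nearest had 43.6. In duodenum, Ciita was at 36.2 in high-dose female replicate 8 (nearest 23.1) and RT1-CE2 at 24.5 in low-dose male replicate 8 (nearest 18.1). RT1-M10-1 was at 10.6 in male control replicate 8 (nearest 7.07) and at 13.9 in high-dose male replicate 5 (nearest 8.96).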

How the results depend on the processing

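Of the recomputed counts of called genes, 999 stayed within 1.5 times the reported count and 81 did not. The 999 include comparisons without a call that stayed without one. With 1 library left out, the count stayed in 22 of 47 fits for the high dose in duodenum. It stayed in 19 of 48 fits for male stomach and in 45 of 46 for the sexes of liver controls. The 2 calls in male stomach became 0 without the filter, without the batch term, with the ribosomal protein share or 3 surrogate variables as covariates, with only the groups compared, and within batch 1 or batch 2 alone. The 4 calls at the high dose in duodenum became 0 without the filter, with the ribosomal protein share and within batch 1. They became 1 without the batch term and within batch 2, and 2 with only the groups compared. With class I rows summed there were 2 calls, but RT1-CE2 and RT1-M10-1 had no row of their own there and could not be called. The low dose in duodenum gave 2 calls within batch 2, and high-dose males there gave 1 with 3 surrogate variables. The 3 calls between female and male liver controls became 5 with the ribosomal protein share and 0 within batch 1 or batch 2, and stomach controls gave 1 by DESeq2. Single batches hold fewer libraries, and the fit with class I rows summed holds no single class I gene. For the other settings the cause was not tested. Leaving out 1 library gave 0 to 7 calls at the high dose and 0 to 1 at the low dose in duodenum, 2 to 5 between liver controls of the sexes, 0 to 1 between those of stomach, and 0 to 3 in male stomach. Between liver and duodenum, library totals turned Tap1 to -1.0, B2m to -0.0769, RT1-A1 to -0.60, RT1-CE14 to -0.63 and RT1-CE1 to -0.96, and class I calls went from 8 higher and 5 lower to 4 and 8. Between liver and stomach RT1-Da turned to -0.98 with library totals and to -0.0247 with DESeq2's size factors and -0.0248 by DESeq2, and without the batch term Ciita turned to 0.00995 and Cd74 to 0.0374. For the replicate numbers of the titles, the median correlation of same-numbered libraries was -0.01 in liver, 0.03 in stomach and 0.00 in duodenum. For libraries of other numbers it was -0.03, -0.02 and -0.02. In the same order 4 of 46, 14 of 48 and 6 of 47 libraries correlated best with their own number. The share was largest in stomach, and it was not tested against chance. With the replicate block 3 genes were called at the high dose in duodenum, 2 in male stomach, 3 between liver controls of the sexes and 1 between those of stomach. Levels of single class I copies are limited by shared reads, and genes near 0 by depth.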
